A study of Homo sapiens with 5 samples.

Results

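Integrins are the cell-surface receptors through which cells hold on to the extracellular matrix. The genes described here encode 10 integrin subunits, the α subunits ITGA1, ITGA2, ITGA3, ITGA5 and ITGAV and the β subunits ITGB1, ITGB3, ITGB5, ITGB6 and ITGB8. They were chosen by symbol, as every array probe whose annotated gene is one of these names. That gave 18 probes among 48106 probes on the array, and 10 genes among 20043 named genes.

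Each working integrin is a pair of 1 α and 1 β chain, and the pair decides which matrix protein is bound. ITGB1 is the shared β chain of receptors for collagen, laminin and fibronectin, while ITGAV pairs with several β chains to bind vitronectin, fibronectin and the latent form of TGF-β. In pancreatic ductal adenocarcinoma, a tumour rich in fibrous matrix, integrins connect tumour cells to collagen, laminin and fibronectin and signal through focal adhesion kinase and SRC.

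RNA was measured on 5 Illumina BeadChip arrays from established cell lines of human pancreatic ductal adenocarcinoma, BXPC3 and Miapaca, after siRNA against LYNX1, a membrane-anchored protein of the Ly6 family that binds nicotinic acetylcholine receptors. The groups were BXPC3 with an siRNA against the LYNX1 open reading frame (ORF), BXPC3 with a non-targeting control siRNA, Miapaca with the ORF siRNA, Miapaca with an siRNA against the LYNX1 3′ untranslated region (3UTR), and Miapaca with the control siRNA. Every group held 1 array. BXPC3 cells, grown in RPMI-1640, received 200 nM siRNA with 14 µl of Xtreme gene9. Miapaca cells, grown in DMEM, received 60 pM, the unit as the labels state it, with 4 µl of lipofectamine RNAiMAX. In both lines siRNA was added 24 h after seeding and exposure lasted 72 h, so line, dose, reagent and medium cannot be told apart. The labels do not say that the arrays came from separate experiments.

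Mean bead intensity was 361 and 366 on the BXPC3 ORF and control arrays, and 355, 343 and 463 on the Miapaca ORF, 3UTR and control arrays. A probe was called detected at a detection p-value under 0.01, which 16622 to 18205 probes reached per array. Both LYNX1 probes missed that threshold on all 5 arrays, with a lowest detection p of 0.023, so the knockdown could not be checked and each array is named by its label. Of 8 epithelial markers, 8 and 7 were detected on the BXPC3 ORF and control arrays and 3, 4 and 3 on the Miapaca ORF, 3UTR and control arrays. EPCAM, CDH1, KRT7 and CLDN7 were detected in BXPC3 only, while KRT8, KRT18 and KRT19 were detected on all 5 arrays. Between the lines KRT19 was higher in BXPC3 (log2 difference 2.60, limma adjusted p = 0.00919) and KRT8 was lower (−1.76, adjusted p = 0.00417), and KRT18 did not pass (−0.34, adjusted p = 0.464). Of the markers of other cells, 2 of 6 fibroblast, 1 of 5 endothelial, 2 of 5 blood and 0 of 4 acinar genes were detected on any array.

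The subunits detected on all 5 arrays, and so in both lines, were ITGA3, ITGA5, ITGAV, ITGB1 and ITGB5. ITGA2 was detected in BXPC3 only, and ITGA1 on the BXPC3 ORF array only. ITGB3, ITGB6 and ITGB8, the β chains that with ITGAV form the vitronectin receptor and the main activators of latent TGF-β, were not well above background on any array. Each of these has 1 probe on the array, and their normalized log2 intensities lay between 4.23 and 4.52. The lowest detected signals of the 5 arrays were 4.42 to 4.58 on the same scale.

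**Figure D1:**
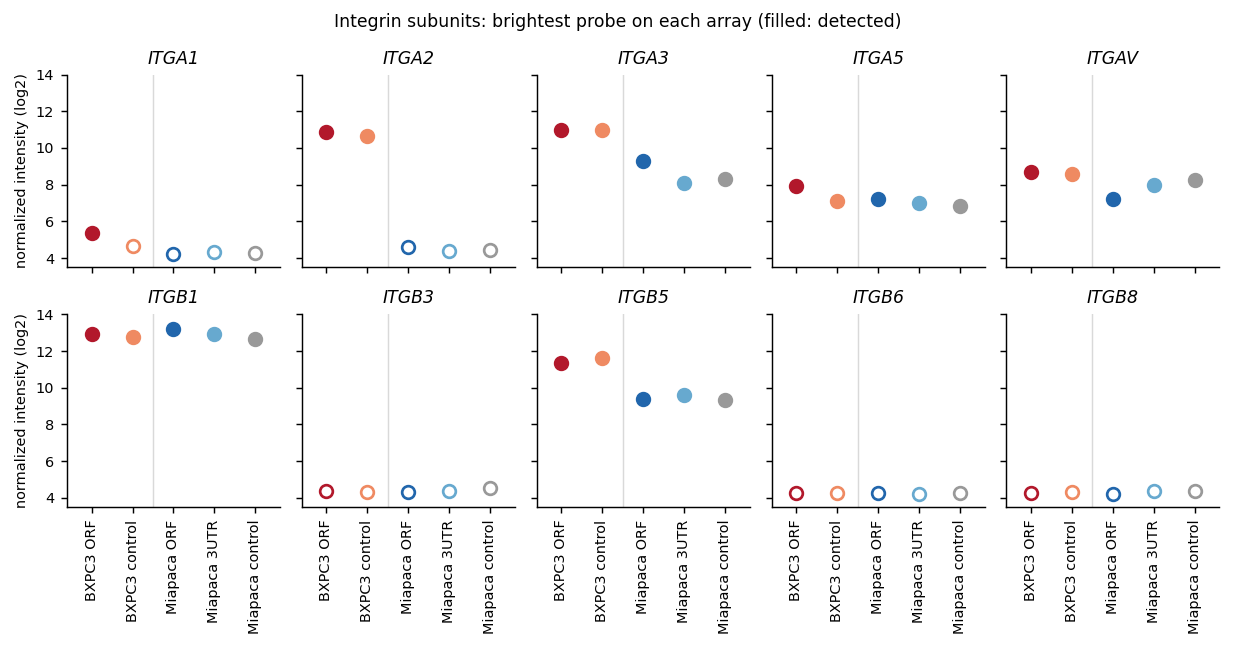
Normalized log2 intensity (vertical axis) of the brightest probe of each integrin subunit on the 5 arrays (horizontal axis), with filled points where the probe was detected and open points where it was not. ITGA2 stands at 10.88 and 10.65 on the BXPC3 arrays and between 4.41 and 4.58 on the Miapaca arrays, while ITGB1 lies between 12.65 and 13.22 on all 5.

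The levels below are normalized log2 intensities of the brightest probe of each gene, and a difference of 1 is 2-fold. Because each probe has its own brightness, levels are compared between arrays and never between genes. Levels came from whole cultures, in which fewer cells of a type and less RNA per cell cannot be told apart.

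Among the collagen and laminin receptors, ITGA2 set the lines apart most. ITGA2, the α chain of a collagen receptor, read 10.88 on the BXPC3 ORF array and 10.65 on the BXPC3 control array. On the Miapaca arrays it read 4.58 (ORF siRNA), 4.41 (3UTR siRNA) and 4.43 (control siRNA), not well above background on any of them. In bead intensity, before normalization, the same probe stood at 1772 and 1544 in BXPC3 and between 93.1 and 102 in Miapaca. ITGA3, the α chain of a laminin receptor, read 10.98 on the BXPC3 ORF array and 10.98 on the BXPC3 control array, against 9.28, 8.10 and 8.30 on the Miapaca ORF, 3UTR and control arrays. All 3 Miapaca arrays lay below both BXPC3 arrays, and the Miapaca ORF array stood above the other Miapaca arrays. A dimmer ITGA3 probe was detected on no array. ITGA1, the α chain of another collagen receptor, was detected at 5.35 on the BXPC3 ORF array and not on the others, where it read 4.65 on the BXPC3 control array and between 4.20 and 4.36 on the Miapaca arrays.

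Among the receptors for fibronectin and vitronectin, ITGB5 also followed the line. ITGB5, the β chain that joins ITGAV in a vitronectin receptor, read 11.35 on the BXPC3 ORF array and 11.59 on the BXPC3 control array, against 9.37, 9.63 and 9.31 on the Miapaca ORF, 3UTR and control arrays. ITGAV read 8.67 and 8.59 on the BXPC3 ORF and control arrays, against 7.20, 7.96 and 8.27 on the Miapaca ORF, 3UTR and control arrays. Its lowest level was therefore on the Miapaca ORF array. ITGA5, the α chain of the main fibronectin receptor, read 7.90 and 7.11 on the BXPC3 ORF and control arrays, against 7.24, 7.02 and 6.84 on the Miapaca ORF, 3UTR and control arrays, and the lines overlapped. ITGB1 read 12.95 and 12.79 on the BXPC3 ORF and control arrays, against 13.22, 12.94 and 12.65 on the Miapaca ORF, 3UTR and control arrays. Its highest and lowest levels both came from Miapaca.

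The order of the arrays can be read against the moderated residual SD of a limma fit over all 5 arrays, described in the next paragraphs. Moderation draws the SD of each gene toward a value shared by all genes, with 5.33 prior and 2 residual degrees of freedom. This moderated SD is called the residual SD below. For ITGB1, every step between neighbouring arrays in that order was smaller than its residual SD of 0.27. For ITGA2, only the step of 6.07 between the BXPC3 control and Miapaca ORF arrays exceeded its residual SD of 0.26. ITGB5 likewise had 1 step above its residual SD of 0.28, of 1.72 between the BXPC3 ORF and Miapaca 3UTR arrays. In ITGA3, steps of 1.70 between the BXPC3 ORF and Miapaca ORF arrays and 0.98 between the Miapaca ORF and control arrays exceeded the residual SD of 0.41. ITGA5 had a step of 0.66 between the BXPC3 ORF array and the Miapaca ORF array, against a residual SD of 0.28, and the steps between neighbours among its other 4 arrays were smaller. In ITGAV the step of 0.75 between the Miapaca 3UTR and Miapaca ORF arrays exceeded the residual SD of 0.36. ITGA1 had a step of 0.70 between the BXPC3 ORF and control arrays, against a residual SD of 0.30, and its 4 undetected arrays have no order.

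ITGA2, ITGA3 and ITGB5 were higher in BXPC3 than in Miapaca, and no other subunit passed the test. The test was a limma fit over 5 arrays with a term for the line and a term for LYNX1 siRNA, with Benjamini-Hochberg adjustment over 12842 genes detected on at least 1 array. It called 26.9% of all genes for the line at an adjusted p under 0.05, against 3 of the 7 detected subunits, and 39% of genes had an unadjusted p under 0.05. ITGA1 and ITGA2 entered it only through BXPC3. ITGA2 averaged 10.76 ± 0.17 (SD, n = 2) in BXPC3 and 4.47 ± 0.093 (SD, n = 3) in Miapaca, a fitted log2 difference of 6.31 (SE 0.24) with a limma adjusted p of 5.24e-06. Since it was not well above background in Miapaca, it is given as at least 74.3-fold higher in BXPC3. That bound rests on the background correction: the fitted log2 difference was 4.21 without it, 4.25 in the authors' values and 5.00 with an offset of 50.

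ITGA3 averaged 10.98 ± 0.0045 (SD, n = 2) in BXPC3 and 8.56 ± 0.63 (SD, n = 3) in Miapaca, a 5.49-fold difference (log2 2.46, SE 0.38, limma adjusted p = 0.00308). ITGB5 averaged 11.47 ± 0.17 (SD, n = 2) in BXPC3 and 9.44 ± 0.17 (SD, n = 3) in Miapaca, a 4.10-fold difference (log2 2.04, SE 0.26, limma adjusted p = 0.00122). The ITGB5 difference was also seen with its other detected probes, at 1.91 and 1.21 on the log2 scale between the control arrays, against 2.28 for the brightest. Without the Miapaca control array, the BXPC3 control array or the BXPC3 ORF array in turn, the limma fit called neither ITGA3 nor ITGB5. Their log2 differences were then 2.29, 2.29 and 2.68 for ITGA3 and 1.85, 1.85 and 2.28 for ITGB5. Each of these fits left 1 array in a line or siRNA group, and only the Miapaca ORF and 3UTR arrays set its residual. The first 2 make the same line comparison, so the 3 fits are not independent. ITGA2 was called in all 5 fits that left out an array, with an adjusted p of at most 0.0189.

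For the other detected subunits the fit gave an interval that held 0 or missed the adjusted threshold. ITGAV averaged 8.63 ± 0.056 (SD, n = 2) in BXPC3 and 7.81 ± 0.55 (SD, n = 3) in Miapaca, a log2 difference of 0.76 (95% interval −0.015 to 1.54, limma adjusted p = 0.135). Leaving out 1 array gave ITGAV log2 differences of 0.32 (without the BXPC3 ORF array) to 1.09. Without the Miapaca 3UTR array its limma adjusted p was 0.0191, against 0.135 with every array. ITGA5 averaged 7.51 ± 0.56 (SD, n = 2) in BXPC3 and 7.03 ± 0.20 (SD, n = 3) in Miapaca (log2 difference 0.56, 95% interval −0.048 to 1.17, limma adjusted p = 0.156). ITGB1 averaged 12.87 ± 0.11 (SD, n = 2) in BXPC3 and 12.94 ± 0.28 (SD, n = 3) in Miapaca, and its 95% interval of −0.61 to 0.57 leaves room for a difference of about that size in either direction (limma adjusted p = 0.966). ITGA1, detected on 1 BXPC3 array, had a fitted log2 difference of 0.76 (95% interval 0.12 to 1.41, limma adjusted p = 0.0800). Since only that array was above background, no fold is given for the line. The difference was 0.32 without background correction and 0.35 without the BXPC3 ORF array, and without the Miapaca 3UTR array ITGA1 passed with an adjusted p of 0.0484.

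**Figure D2:**
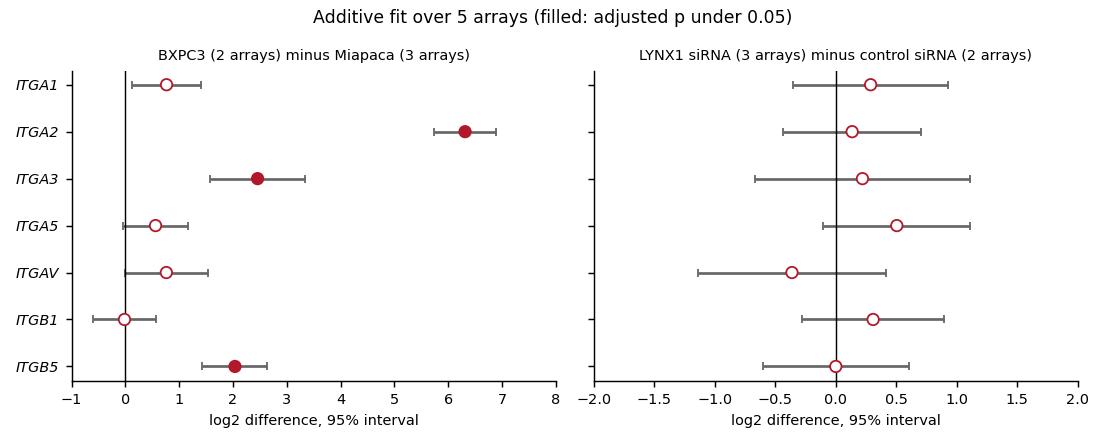
Log2 difference (horizontal axes) with its 95% interval for the 7 detected integrin subunits in the fit over 5 arrays, for BXPC3 minus Miapaca (left) and LYNX1 siRNA minus control siRNA (right). Filled points passed an adjusted p under 0.05, which ITGA2, ITGA3 and ITGB5 did for the line and no subunit did for the siRNA.

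The same contrast can be read on the control siRNA arrays alone, where no test is possible. BXPC3 was at least 2-fold above Miapaca for 3 of the 6 subunits measured there, ITGA2, ITGA3 and ITGB5. Of all genes 29.1% were 2-fold apart, 14.7% higher and 14.3% lower in BXPC3. ITGA2 entered this count only through BXPC3. Among genes detected on both arrays, ITGA3 and ITGB5 were 2 of 5 subunits, beside 1101 of 9078 genes that were 2-fold higher. ITGA2 was at least 71.3-fold, ITGA3 6.42-fold and ITGB5 4.86-fold higher in BXPC3. For ITGA2 the log2 difference was 6.21, against 4.09 without background correction, 4.16 in the authors' values and 4.88 with an offset of 50. ITGAV, ITGA5 and ITGB1 lay within 2-fold, at log2 differences of 0.32, 0.28 and 0.14. Under median scaling, which moved the median of all genes from −0.05 to −0.39, ITGAV, ITGA5 and ITGB1 stood at −0.14, −0.034 and −0.33. Each lay above that median but below 0, so for them no direction is given. The summed bead intensity of the epithelial markers was 17692 and 16332 on the BXPC3 ORF and control arrays, against 9393, 5714 and 6791 on the Miapaca ORF, 3UTR and control arrays. VIM, a mesenchymal intermediate filament, read 6.89 and 6.16 on the BXPC3 ORF and control arrays, against 14.19, 14.05 and 13.94 on the Miapaca ORF, 3UTR and control arrays. CDH2, the other detected gene among 5 mesenchymal markers, went the opposite way and was at least 2.88-fold higher in BXPC3. Their part in the integrin differences was not tested.

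The genes most like the subunits with the widest spans were found by the root mean square distance of mean-centred log2 levels over 5 arrays. For ITGA2, which spanned 6.47, these were MAL2 at a distance of 0.079 and the tight-junction gene CLDN7 at 0.082. For ITGA3, which spanned 2.88, they were FOCAD at 0.079 and PLLP at 0.088, and for ITGB5, which spanned 2.28, GRB14 at 0.059 and ABRACL at 0.067. The 5 arrays fall into 2 lines, and each of these genes was also higher on both BXPC3 arrays than on the 3 Miapaca arrays.

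Promoter sequence is shown for the subunits that set the lines apart and for ITGA5, read from RefSeq promoters of 300 bases (250 before to 50 after the start site, GRCh38.p14). Promoters were given for 8 of the 10 subunits, and none of these was ITGA3 or ITGB3. The search was for GGGCGG, the GC box that SP1 family factors bind, and TGANTCA, which AP-1 factors bind, on both strands. Each line is 30 bases, 5′ to 3′ on the gene's strand, with the motif in capitals. Further GGGCGG matches of ITGA2 and ITGB5 are not shown. Some of those of ITGB5 belong to promoters of other start sites, as at chr3:124887365-124887394.
ITGA2, chr5:52989221-52989250, plus strand: agggccggggtgGGGCGGggcgcggccgga
ITGA2, chr5:52989331-52989360, plus strand: cctgctctcaccGGGCGGgggagagaagcc
ITGB5, chr3:124901436-124901465, minus strand: caacttccggcgGGGCGGagcttttaaaag
ITGA5, chr12:54419254-54419283, minus strand: cctccccgcgtTGAGTCAttcgcctctggg
GGGCGG was present in promoters of ITGA2, ITGA5, ITGB1, ITGB5 and ITGB8. Counted by promoter, it was in 7 of the 12 given for the subunits and in 45% of all 35116 promoters. TGANTCA was present in ITGA5 alone among the subunits, in 1 of the 12 promoters, and in 7.71% of all promoters. ITGB1 and ITGA5, which did not pass the line test, hold the GC box as ITGA2 and ITGB5 do.

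With the ORF siRNA in Miapaca, ITGAV was lower and ITGA3 was higher than with the control siRNA. ITGAV read 7.20 with the ORF siRNA and 8.27 with the control siRNA, 2.10-fold lower (log2 difference −1.07). ITGA3 read 9.28 with the ORF siRNA and 8.30 with the control siRNA, 1.97-fold higher (log2 difference 0.98) and just inside the 2-fold threshold. Over 8 alternative settings ITGA3 lay between 0.49, with median scaling, and 1.05. Only ITGAV of the 5 measured subunits passed 2-fold, beside 10.6% of all genes in either direction, 5.07% higher and 5.51% lower. A share of 8.41% of all genes differed by more than ITGAV in this comparison, and 11.1% by more than ITGA3. With 1 array on each side there is no replicate error and no test for these differences. ITGAV was less than 2-fold lower without background correction, with an offset of 50 and in the authors' values, and lay between −1.66 and −0.77 on the log2 scale over 8 alternative settings.

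The other measured subunits in this comparison were smaller shifts. ITGB1 read 13.22 with the ORF siRNA and 12.65 with the control siRNA (log2 difference 0.56), and ITGA5 read 7.24 and 6.84 (0.40). ITGB5 read 9.37 with the ORF siRNA and 9.31 with the control siRNA (0.054). The median of the 5 subunits was 0.40 and that of all genes 0.02. Median scaling turned ITGA5 to −0.13 and ITGB5 to −0.45 while moving the median of all genes to −0.40, so relative to that median ITGA5 stayed above. The Miapaca control array was 1.30 times as bright on average as the ORF array, and the part of that in these differences was not tested.

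The 3UTR siRNA left no subunit 2-fold apart in Miapaca, while 8.86% of all genes were, 4.22% higher and 4.64% lower. ITGAV read 7.96 with the 3UTR siRNA and 8.27 with the control siRNA (log2 difference −0.31), and ITGA3 read 8.10 and 8.30 (−0.20). ITGB5 read 9.63 with the 3UTR siRNA and 9.31 with the control siRNA (0.31), ITGB1 read 12.94 and 12.65 (0.29), and ITGA5 read 7.02 and 6.84 (0.19). The median of the 5 subunits was 0.19. Under median scaling all 5 subunits lay below the control, with the median of all genes at −0.47. The comparison shares its control array with the ORF siRNA, so the sets of values are not independent.

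The 2 LYNX1 siRNAs can be set against each other without the control array. ITGA3 read 9.28 on the ORF array and 8.10 on the 3UTR array, 2.26-fold higher (log2 difference 1.18), the only 1 of 5 measured subunits past 2-fold, beside 10.1% of all genes, 5.19% higher and 4.92% lower. ITGAV read 7.20 on the ORF array and 7.96 on the 3UTR array (−0.75). A larger difference than that of ITGA3 was found in 6.09% of all genes. ITGA3 kept its direction over 8 alternative settings, at 0.98 to 1.31, and only without background correction did it fall inside 2-fold. Of these settings, detection on both arrays, averaging over detected probes and a detection p under 0.05 could not move its value. ITGB1, ITGA5 and ITGB5 differed by 0.27, 0.21 and −0.26. Beside ITGA3, the epithelial keratin KRT19 read 10.80 with the ORF siRNA, against 9.07 with the 3UTR siRNA and 9.07 with the control siRNA. The part of the epithelial markers in the ITGA3 difference was not tested.

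In BXPC3 the ORF siRNA left no subunit 2-fold apart, beside 1.09% of all genes. ITGA5 read 7.90 with the ORF siRNA and 7.11 with the control siRNA, 1.72-fold higher (log2 difference 0.79), and 3.63% of all genes differed by more. ITGA1 was detected with the ORF siRNA at 5.35 (detection p 0.00066) and missed the threshold with the control siRNA at 4.65 (detection p 0.015), at least 1.62-fold higher with this background correction (log2 difference 0.70). It was 0.22 without background correction, 0.23 in the authors' values and 0.34 with an offset of 50. A larger difference than that of ITGA1 was found in 5.61% of all genes. ITGA2, ITGB1 and ITGAV differed by 0.23, 0.16 and 0.079 on the log2 scale. ITGA3 and ITGB5 differed by −0.0064 and −0.24. The median of the 7 measured subunits was 0.16 and that of all genes −0.005.

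**Figure D3:**
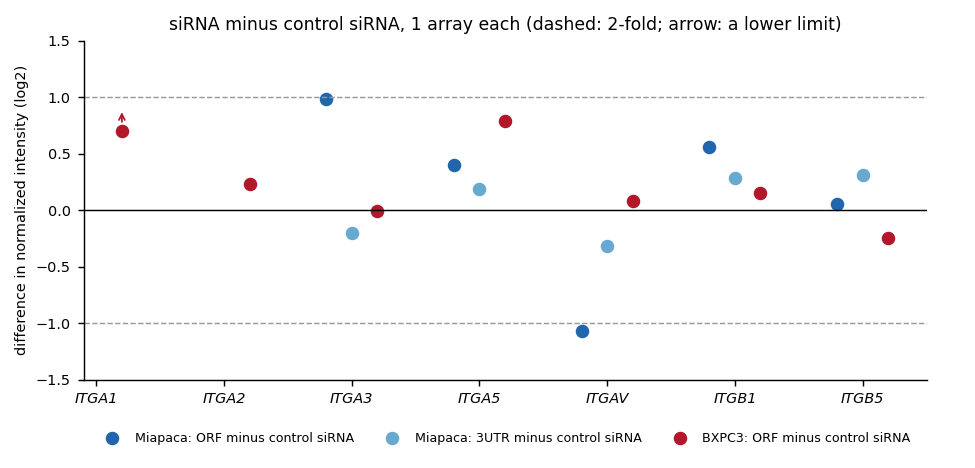
Log2 difference in normalized intensity (vertical axis) between each LYNX1 siRNA array and the control siRNA array of its line, for the 7 detected integrin subunits (horizontal axis), with 1 array on each side and dashed lines at 2-fold. ITGAV lies at −1.07 and ITGA3 at 0.98 with the ORF siRNA in Miapaca, while in BXPC3 the highest measured difference is that of ITGA5 at 0.79.

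ITGA5 and ITGB1, which together form the fibronectin receptor, were higher with LYNX1 siRNA than with control siRNA in all 3 pairs of arrays, of which 2 share the Miapaca control. The share of all genes that were higher in all 3 pairs was not counted, so the shared sign is not read as a result about these subunits. Under median scaling ITGA5 was lower in both Miapaca pairs and ITGB1 in the 3UTR pair, at −0.093. Neither passed the siRNA term of the limma fit over 5 arrays. ITGB1 averaged 13.03 ± 0.16 (SD, n = 3) with LYNX1 siRNA and 12.72 ± 0.096 (SD, n = 2) with control siRNA (log2 difference 0.31, SE 0.25, limma adjusted p = 0.895). ITGA5 averaged 7.39 ± 0.46 (SD, n = 3) with LYNX1 siRNA and 6.98 ± 0.20 (SD, n = 2) with control siRNA (log2 difference 0.50, SE 0.26, limma adjusted p = 0.894). Its 95% interval was −0.10 to 1.11.

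For the remaining subunits the 95% interval of the siRNA term included 0. The intervals were −1.14 to 0.41 for ITGAV, −0.67 to 1.11 for ITGA3, −0.60 to 0.61 for ITGB5, −0.43 to 0.71 for ITGA2 and −0.35 to 0.93 for ITGA1. Over all 12842 genes the limma siRNA term called 0 after Benjamini-Hochberg adjustment, and 547 had an unadjusted p under 0.05, which is 4.26% of genes. The intervals for ITGAV and ITGA3 include the differences seen with the ORF siRNA in Miapaca. The fit treats both LYNX1 siRNAs as 1 treatment, so a difference between them adds to its residual. It called 95 genes without the Miapaca 3UTR array and 16 without the Miapaca ORF array, none of them one of these subunits.

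Several probes of 1 gene allowed a check within ITGB1 and ITGB5. In Miapaca with the ORF siRNA, the brightest ITGB1 probe differed from the control by 0.56, the next by 1.10 and the dimmest detected by 0.29 on the log2 scale. With the 3UTR siRNA the same probes differed by 0.29, 0.85 and 0.41. All 3 were above the control in both comparisons, except that median scaling put the brightest at −0.093 with the 3UTR siRNA, and their sizes disagreed. Between the control arrays the brighter ITGB1 probes gave 0.14 and 0.73 for BXPC3 minus Miapaca, and the dimmest was not detected on the BXPC3 control array. In BXPC3 the brightest ITGB1 probes differed by 0.16 and 0.041. The 3 detected ITGB5 probes gave 0.054, 0.30 and −0.18 with the ORF siRNA in Miapaca, 0.31, 0.29 and −0.32 with the 3UTR siRNA, and −0.24, 0.17 and 0.029 in BXPC3. No direction of ITGB5 with siRNA held over its probes.

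**Figure D4:**
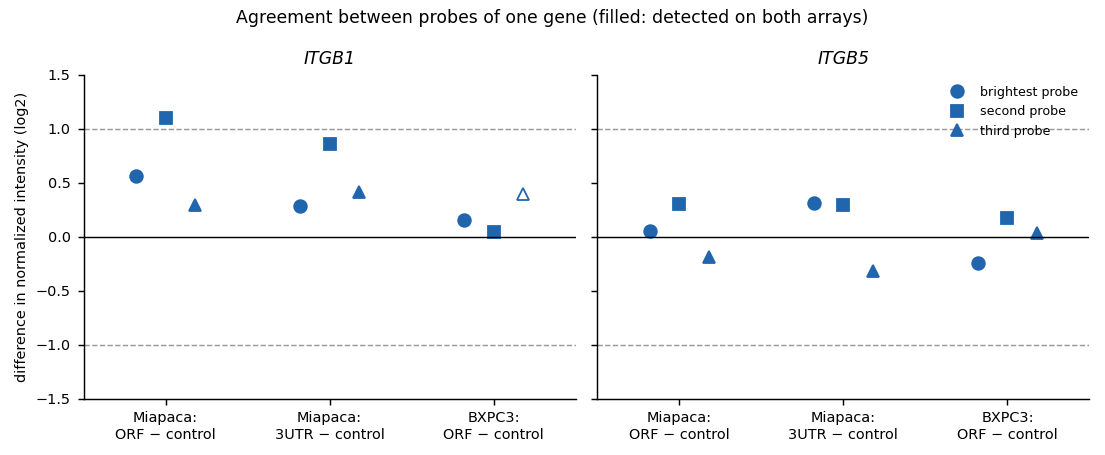
Log2 difference between LYNX1 siRNA and control siRNA (vertical axis) for the 3 detected probes of ITGB1 and of ITGB5 in the 3 comparisons (horizontal axis), filled where both arrays detected the probe. The ITGB1 probes lie above 0 in both Miapaca comparisons at 0.29 to 1.10 (the brightest at −0.093 with the 3UTR siRNA under median scaling), and the ITGB5 probes fall on both sides of 0.

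Genes around the integrins were read as 8 lists by role, with the line term of the limma fit, which called 13.9% of all genes higher and 13% lower in BXPC3. A gene given as at least a fold between the lines was detected in 1 line only and entered the fit through that line. Such folds rest on the background correction and are not given under other settings. For ITGA2 the log2 difference went from 6.31 to 4.21 without that correction. Among integrin subunits outside the 10, 2 of 11 detected genes were higher and 1 was lower in BXPC3. ITGA6 (log2 difference 2.37, 5.15-fold) and ITGB4 (2.12, 4.35-fold), which pair in the laminin receptor of hemidesmosomes, were higher, and ITGA10, a collagen-receptor chain not well above background in BXPC3, was at least 1.97-fold lower. Their limma adjusted p-values were 0.00097, 0.00168 and 0.0485. Another ITGB4 probe detected on both control arrays differed by 1.90 on the log2 scale.

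Matrix ligands moved in both directions, with 8 of 15 detected genes higher and 4 lower in BXPC3. LAMB3, a chain of the laminin bound by the products of ITGA3 and ITGA6, was at least 93.4-fold higher in BXPC3, and THBS1, which encodes thrombospondin, at least 16.1-fold. A dimmer LAMB3 probe was detected on neither control array. LAMB1 and LAMA5, further laminin chains, were higher by log2 differences of 4.17 and 4.00. The collagen genes COL1A2, COL6A3, COL6A1 and COL4A1 were lower in BXPC3, the last 3 by at least 9.75-fold, 7.46-fold and 7.95-fold. COL1A2 was detected on 1 of 2 BXPC3 arrays, the control, and differed there by −4.81 on the log2 scale. ITGA2, whose product binds collagen, was higher in the line with the lower level of these collagen RNAs.

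Among adaptors that link integrin tails to actin, 2 of 15 detected genes were higher and 3 lower in BXPC3. The kindlins FERMT3 and FERMT1, which help activate integrins, were higher. FERMT1 had a log2 difference of 1.64. FERMT3 was detected on 1 of 3 Miapaca arrays, the control, and differed there by 4.50. The adaptors TNS3, PARVA and VCL were lower (−1.57, −1.14 and −0.91). Of 5 inhibitors of integrin activation, CIB1 was higher (0.79), while ITGB1BP1 (−1.52) and NISCH (−0.90) were lower. Adhesion kinases and scaffolds had 6 of 16 detected genes higher and 1 lower. The scaffold NEDD9 and the kinase PTK2B were at least 4.58-fold and 4.88-fold higher in BXPC3, and GIT1 was lower (−1.07). Another detected PTK2B probe did not follow, at −0.22 on the log2 scale between the control arrays. The NEDD9 fold is that of its brightest probe. Its 2 other detected probes were also detected in BXPC3 only and stood less far apart, at 0.45 and 1.53 between the control arrays.

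Of 10 detected lateral membrane partners, 5 were higher and 1 was lower in BXPC3. The syndecan SDC4 (log2 difference 3.05), CD47 (2.67, with 2 of 3 Miapaca arrays detected) and the tetraspanin CD82 (2.33) were higher, and the tetraspanin CD81 was at least 136-fold lower. Latent TGF-β partners had 2 of 5 detected genes higher and 1 lower, with NRROS, which holds latent TGF-β on cells, at least 20.3-fold lower and LTBP3 3.17-fold higher. Of 12 detected traffic genes, 2 were higher and 1 lower. RAB25, a GTPase of integrin recycling, was at least 50.7-fold higher in BXPC3, DAB2, an endocytic adaptor, at least 6.30-fold higher, and SNX17 was lower (−1.10).

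**Figure D5:**
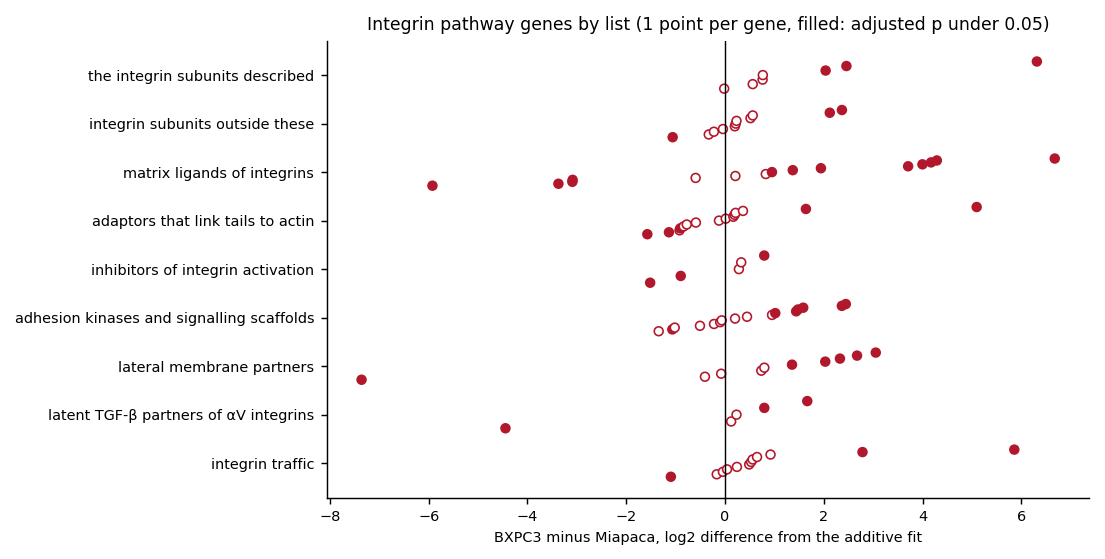
Log2 difference of BXPC3 minus Miapaca from the fit over 5 arrays (horizontal axis) for each detected gene of the integrin subunits and of the 8 lists around them (rows), 1 point per gene and filled where the adjusted p was under 0.05. Matrix ligands spread widest, with 8 genes higher and 4 lower in BXPC3, and ITGA2 stands at 6.31 in the top row.

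The siRNA term of the limma fit called none of the genes in the 8 lists, as it called 0 of all genes. In single comparisons in Miapaca with the ORF siRNA, 2 of 10 measured lateral partners were 2-fold higher and 1 was lower, beside 5.07% and 5.51% of all genes. PLAUR, the urokinase receptor, which binds integrins at the membrane, was 3.39-fold higher and the tetraspanin CD9 was 2.04-fold higher. CD47, the partner of ITGAV and ITGB3 proteins, was at least 4.37-fold lower by its brightest probe, and its other probe was not detected in Miapaca. Of 15 measured adaptors only LIMS1 was past 2-fold, at −1.77, with −0.76 by its other probe. Of 13 measured kinases and scaffolds, RAPGEF1 was higher (1.34) and RAP1B lower (−1.35). Matrix ligands had 0 of 12 past 2-fold with a median of 0.41, against 0.02 for all genes.

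With the 3UTR siRNA in Miapaca, the ligand gene CCN2 was 2.03-fold higher by its brightest probe (0.08 on the log2 scale by the other) and COL6A3 was 2.22-fold lower. The kindlin FERMT2 was 2.36-fold and LIMS2 at least 2.01-fold higher, while SHARPIN, an integrin inhibitor, was 2.07-fold and CD47 2.44-fold lower. In BXPC3 with the ORF siRNA, DOK1, another inhibitor of integrin activation, was detected at 6.53 and not with the control siRNA at 4.27. Against the lowest detected signal of the control array it was 4.33-fold higher. Yet the DOK1 probe read 6.02 on the Miapaca control array without being detected, so 4.33-fold is not a firm lower limit. COL1A2 was at least 2.18-fold lower by its brightest probe, and its other probe was detected on neither BXPC3 array. No integrin subunit outside the 10 was past 2-fold with any LYNX1 siRNA against its control.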

How the data were processed

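The authors deposited mean bead intensity and a detection p-value per probe and array, not normalized between arrays per the file headers. The authors' series matrix has intensity normalized between arrays. The method of that normalization is not given in the sources used, nor is any background subtraction. Its column medians were 100.0 to 102, on a linear and uncentred scale, with rank correlations of at least 0.9998 with the bead means, and it served as an alternative.

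Of 48107 probes, 1 lacked a value and was dropped. Background, modelled with the help of the detection p-values, was corrected by normexp (offset 16). Arrays were quantile-normalized before the log2 was taken, with limma 3.58.1 (R 4.3.3). Tables and figures used Python 3.11.15. By the platform annotation 30113 probes had 1 gene symbol, 8 had several and 17985 were not listed. RefSeq accessions updated the symbols of 29081 probes and Entrez identifiers those of 1011, and 21 stayed as annotated. The brightest probe stood for a gene. Genes detected (p under 0.01) on at least 1 array entered a comparison. A gene detected on 1 side only is given as at least a fold, taking for the dim side the lowest detected signal of the array, or the probe's value where that was higher. Such a fold is a lower limit under this background correction only. Called differences were at least 2-fold, with no test for 1 array per group.

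The limma fit had terms for line and LYNX1 siRNA, 2 residual and 5.33 prior degrees of freedom, and Benjamini-Hochberg adjustment. Arrays of a line under different siRNA stand in for replicates, so its p-values measure only the spread between these arrays, which may be technical. The fit was tested on simulated data, where it called 26% of 50 genes set 2-fold apart for the line. For the siRNA it called 36% of 50. In those data 12642 of 12842 genes were set to no difference for each term, while on the 5 arrays the line term called 26.9% of genes. The share of genes 2-fold apart that the fit calls on these arrays was not tested. A gene that was not called may still differ by 2-fold. The subunits and lists were chosen with earlier results of these data known. From each list the text took genes past 2-fold in an siRNA comparison or called by the fit, at most 4 per list and comparison by size, and not all of these are named. The genes most like ITGA2, ITGA3 and ITGB5 were the 2 nearest for each of the 3 subunits with the widest span.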

Additional observations from a re-analysis of the deposited data

Results flagged for a closer look

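In 3 subunits the ORF siRNA gave differences of opposite sign in the 2 lines, each from 1 array against 1, and whether the lines differed was not tested. ITGA3 differed from the control siRNA by −0.0064 in BXPC3 and by 0.98 in Miapaca on the log2 scale. ITGAV differed by 0.079 in BXPC3 and by −1.07 in Miapaca. ITGB5 differed by −0.24 in BXPC3 and by 0.054 in Miapaca, and its probes disagreed in sign in both lines. The dose, reagent and medium differed between the lines as well and cannot be told apart from the line. Under median scaling ITGAV stood at −0.029 in BXPC3 and −1.66 in Miapaca and ITGB5 at −0.34 and −0.45, so their signs were then the same, while ITGA3 stood at −0.10 and 0.49.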

How the results depend on the processing

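No paired analysis was possible because each group holds 1 array and the labels give no replicate numbers. Over 8 alternative settings, the line differences of ITGA2, ITGA3 and ITGB5 kept their direction and their call, though the size for ITGA2 ranged over 4.21 to 6.36 on the log2 scale. Averaging over detected probes, a detection p under 0.05 and no filter on dim genes could not move the differences of ITGA2 and ITGA3, which stayed at 6.31 and 2.46. The number of subunits past 2-fold with the ORF siRNA in Miapaca, 1 here, was 2 with median scaling over detected probes (ITGA3 was added) and 0 without background correction, with an offset of 50 and with the authors' values. Against the 3UTR siRNA it was 0 without background correction in place of 1. Median scaling over detected probes was chosen after seeing the data. It brought the line term of ITGA1 past the threshold.

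Genes past 2-fold with the ORF siRNA in Miapaca numbered 1153, against 2010 with median scaling, 342 without background correction, 556 with an offset of 50 and 361 with the authors' values. With the 3UTR siRNA they numbered 963, against 2065, 232, 434 and 251 in the same order. In BXPC3 they numbered 123, against 66 when both arrays had to detect a gene, 6 without background correction, 15 with an offset of 50 and 7 with the authors' values. Between the LYNX1 siRNAs they numbered 1082, against 307 without background correction, 522 with an offset of 50 and 329 with the authors' values. Between the control arrays they numbered 3436, against 1739 without background correction and 1807 with the authors' values.

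Scaling moved the balance of higher and lower genes. With the ORF siRNA in Miapaca 553 were higher and 600 lower, against 188 and 1822 with median scaling and 1015 and 486 with median scaling over detected probes. With the 3UTR siRNA 459 were higher and 504 lower, against 85 and 1980, and 966 and 369. In BXPC3 71 were higher and 52 lower, against 44 and 90 with median scaling. Without background correction these were 5 and 1, with an offset of 50 12 and 3, and with the authors' values 6 and 1. Between the control arrays 1741 were higher in BXPC3 and 1695 lower, against 1317 and 2915, and 2497 and 1308. With median scaling the median over all genes lay at −0.40 (ORF) and −0.47 (3UTR) in Miapaca, −0.11 in BXPC3 and −0.39 between the control arrays. Scaling over detected probes moved it to 0.15, 0.15, −0.0055 and 0.13.

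Leaving out 1 array at a time, where the lone array of a group is assumed to vary like the others, the line term called 430 to 4558 genes, against 3454, and 1 to 5 subunits, against 3. The fewest genes were called without the BXPC3 ORF array and 722 without either control array. The siRNA term called 0 to 95 genes, against 0. The fitted siRNA difference of ITGA3 was −0.14 with median scaling, and that of ITGB5 was −0.34 with median scaling, −0.0079 without background correction, −0.0032 with an offset of 50 and −0.0069 with the authors' values, against 0.00044. Leaving out 1 array gave ranges of −0.020 to 0.70 for the siRNA term of ITGA1, −0.10 to 0.49 for ITGA3, −0.69 to 0.079 for ITGAV and −0.24 to 0.18 for ITGB5, and −0.13 to 0.14 for the line term of ITGB1. The fits without the Miapaca control array and without the BXPC3 control array make the same line comparison. The causes of the other changes were not tested. Probes near background, as those of ITGA1, ITGB3, ITGB6 and ITGB8, limit what these arrays show of low transcripts.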
